A study of Caenorhabditis elegans with 2 samples.

Results

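The CEBP-2 regions described here are the 227 that lay on chromosome IV of Caenorhabditis elegans with a summit between 12 and 15.5 Mb, of 1533 regions in the genome. Whole worms had been examined by ChIP-seq, the sequencing of DNA recovered with a tagged protein after chromatin immunoprecipitation, and the authors deposited lists of called peaks. Peaks of the main list and of the conservative list that shared 1 bp or more were merged, the summit was that of the peak with the highest signal value, and a region was selected on the position of that summit. The limits of the stretch were themselves chosen by measured values, because more peaks had been seen there than elsewhere. The density of the regions is therefore given as a description with no test. The stretch measures 3.5 Mb, which is 20.01% of chromosome IV. A further 190 regions lay on the rest of IV and 1116 on the other chromosomes.

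The series holds 1 group with 2 biological replicates and no control immunoprecipitation used here. All worms were of strain OP331, in which the transgene wgIs331 carries the cebp-2 gene (C48E7.11) fused to TY1, EGFP and 3xFLAG tags, together with unc-119(+), in an unc-119(ed3) background. They were young adults, 64 h old, that had been synchronised by starving L1 larvae after bleaching, and the protein was recovered with an antibody against GFP. The samples are whole animals, so binding in 1 tissue cannot be told apart from binding in another, and the tagged protein came from an inserted transgene rather than from the native gene. All positions refer to the build ce11 and are counted from 1. The files hold peaks and no read counts, so depth is unknown.

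CEBP-2 belongs to the C/EBP family of basic leucine zipper (bZIP) transcription factors, which bind DNA as dimers. In C. elegans, chromosome IV carries most of the genes for piRNAs (21U-RNAs), short RNAs that act with the Piwi protein PRG-1 in the germline. Many of these genes sit in broad clusters, each with its own small promoter that holds an element with the core CTGTTTCA. Transfer RNA (tRNA) genes and some genes for small nucleolar RNAs (snoRNAs), which guide the modification of other RNAs, are transcribed by RNA polymerase III from promoter elements called box A and box B.

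The sequences at 4 strong regions of the stretch, at a region over a piRNA gene and at the single summit with a C/EBP site in its window show what lay under these peaks. Each is a window centred on a summit, read on the plus strand from the RefSeq genome WBcel235, which is the same assembly as ce11. The first is the highest region of the stretch, in an intron of rbm-34, at chrIV:12086623-12086723, with GTTCGA, letters shared with box B, in capitals. The second is at chrIV:15059297-15059397, in a region that overlaps the non-coding RNA gene Y41E3.460, with each TTCNNGAA, the paired half-sites of heat shock elements, in capitals. The third is at chrIV:15189611-15189711, with a repeated GGCGGGAA in capitals. In the fourth, at chrIV:14225060-14225160, the capitals are the part of the tRNA gene WBGene00014305 that lies in the window.
rbm-34 intron: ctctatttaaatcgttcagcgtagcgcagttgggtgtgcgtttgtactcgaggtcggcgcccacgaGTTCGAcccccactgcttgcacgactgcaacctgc
Y41E3.460: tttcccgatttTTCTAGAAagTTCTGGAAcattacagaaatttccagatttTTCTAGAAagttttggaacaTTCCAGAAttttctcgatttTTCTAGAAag
tandem repeat: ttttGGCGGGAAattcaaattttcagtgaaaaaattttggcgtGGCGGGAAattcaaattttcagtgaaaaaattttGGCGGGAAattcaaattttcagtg
tRNA gene: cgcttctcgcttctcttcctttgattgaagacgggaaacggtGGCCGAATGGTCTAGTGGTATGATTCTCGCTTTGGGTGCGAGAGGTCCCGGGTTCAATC

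The fifth window, chrIV:13601571-13601671, holds the piRNA gene 21ur-3398 in capitals. Its region also overlaps smy-10, a gene for a small nuclear RNA. The sixth, chrIV:13300890-13300990 in csn-6, a gene for a subunit of the COP9 signalosome, holds the single match to TTRCRYAA in windows of this width. The match, to the C/EBP site with R a purine and Y a pyrimidine, is in capitals.
21ur-3398: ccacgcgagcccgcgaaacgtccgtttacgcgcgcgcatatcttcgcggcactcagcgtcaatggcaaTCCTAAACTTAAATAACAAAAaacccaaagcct
csn-6: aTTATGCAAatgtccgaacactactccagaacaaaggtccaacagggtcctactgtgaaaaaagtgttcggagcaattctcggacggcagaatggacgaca

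The 4 strong windows differ in kind. In the rbm-34 intron, the annotated snoRNA gene F11A10.9 begins 36 bp after the summit, at 12086709, and 26 bp lie between it and the end of the region. The Y41E3.460 window holds 5 copies of TTCNNGAA, and the region matched itself at 93.3% of bases when shifted by 120 bp. The third window holds 3 copies of GGCGGGAA, and its region matched itself at 83.1% of bases at a shift of 34 bp. A match is a description of letters and not a site of binding.

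Regions were 4.78 times as dense in the stretch as on the rest of IV. There were 64.9 per Mb in the stretch, 13.6 per Mb on the rest of IV and 13.5 per Mb on the other chromosomes. The stretch held 14.8% of all regions in 3.49% of the genome, and 54.4% of those on IV. Each replicate's own list, called by the authors on that replicate alone, was also denser in the stretch. In replicate 1 the stretch held 35 regions and the rest of IV 29, a density ratio of 4.83. In replicate 2 it held 65 and 50, a ratio of 5.20. The mean ratio over the replicates was 5.01 ± 0.263 (SD, n = 2). Many regions are neighbours. With 1 region kept per run of regions within 5 kb of each other, the ratio was 2.79.

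The regions were unevenly spread within the stretch. Of its 35 bins of 100 kb, 5 were empty and the median bin held 5 regions, against a median of 1 in the 140 bins on the rest of IV. The fullest bins were 13300001 to 13400000 with 27 regions, 13000001 to 13100000 with 21 and 12300001 to 12400000 with 19. No bin on the rest of IV held more than 10. Bins with at least 3 times the mean of IV outside the stretch numbered 18 in the stretch and 6 elsewhere on IV. Such bins were sought in the stretch and in a fixed flank on either side. The first began at 11900001 and the last ended at 15200000, so they began before the lower limit and ended before the upper one. Across the 35 bins, the number of regions had a Spearman correlation of 0.41 with the number of protein-coding genes and -0.30 with the number of piRNA genes. Neighbouring bins share genes and regions, so these 2 values only describe the map.

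**Figure D1:**
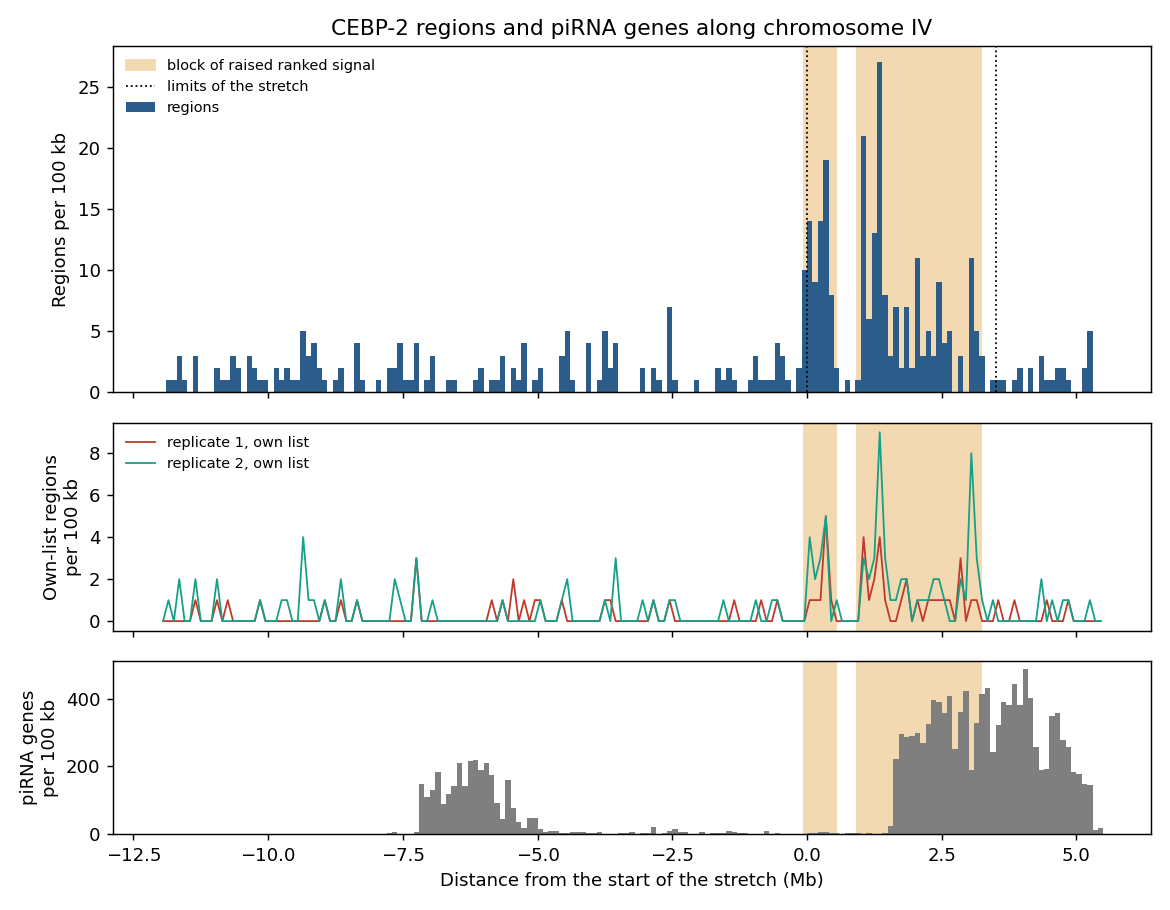
Regions (top, both lists together), regions of each replicate's own list (middle) and piRNA genes (bottom) per 100 kb along chromosome IV, against the distance in Mb from the start of the stretch. Shading marks the blocks of raised ranked signal and dotted lines the limits of the stretch; the regions fill the shaded blocks, while the piRNA genes begin inside the second block and run on past its end, with an earlier cluster that holds few regions.

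The limits cut through a gene on one side and a sparse area on the other. The last region before the stretch, 11994727 to 11994996 with a signal value of 90.4, lay in a coding exon of unc-22, which encodes the giant muscle protein twitchin. The first region inside, 12004235 to 12004504 with 66.2, lay in an intron of the same gene. At the other end the last region inside, 15471501 to 15471770 with 116.8, lay 141 bp upstream of ntl-11, a gene named for the CCR4-NOT complex, and the first outside, 15530595 to 15530864, had a value of 102.7. The authors' lists hold peaks above a limit on a score that rises with reproducibility. The lowest score among listed peaks of the stretch was 831 in the main list and 830 in the conservative list. Below these scores, the highest ranked peaks of the stretch had a score of 828 for both lists, with signal values of 61.7 and 73.9. A region in dmd-6 has the same signal value of 61.7, so the peak left out of the main list may belong to a region. A further 10 ranked peaks of the stretch in the main list and 12 in the conservative list had a score of 830 or more and were not listed.

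Edges were also sought in the ranked peaks, the much longer lists behind the thresholded ones, after all ranked peaks that overlapped a region had been left out. The log2 signal values along each chromosome were divided into segments by optimal partition. Each change cost 3 times the noise variance times the natural logarithm of the number of peaks. The noise was taken from the median absolute difference between neighbouring values. Penalties are named here by their factor, so this is a penalty of 3. Chromosome IV fell into 5 segments in each replicate and in both ranked lists made from the replicates together, with 2 raised blocks and a gap between them. With a penalty of 10 there were 3 segments in each: the first block and the gap were then lost in all but replicate 1, where both blocks and the gap formed 1 raised segment. With a penalty of 5 the 5 segments were kept in replicate 2 and in the list behind the main list alone. In the ranked list behind the main list, the first block ran from 11951227 to 12529940 at 1.33 times the median signal value of IV. The gap, to 12920359, was at 0.949 times, and the second block, from 12920740 to 15237578, at 1.37 times. The blocks measured 0.579 and 2.32 Mb.

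The replicates placed the edges close to each other, apart from the last. In replicate 1 the first block ran from 11913087 to 12525428 and in replicate 2 from 11914463 to 12529914. The second block ran from 12948315 to 15050213 in replicate 1 and from 12918956 to 15259769 in replicate 2. In the pooled list behind the main list the outer edges fell in or beside tbx-36, a T-box transcription factor gene, and lgc-52, which encodes a ligand-gated ion channel subunit, and the inner edges at F53B2.5 and C32H11.3. Segments on the other chromosomes were fewer: each had 1, except I with 3 in replicate 2 and II with 2 in both pooled lists.

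The rise was measured in 3 kinds of sequence, coding exons, introns and sequence outside protein-coding genes, and held in each. With the regions left out, the median signal value of ranked peaks was 1.27 ± 0.026 times that of IV outside the blocks in the first block and 1.30 ± 0.033 times in the second (SD, n = 2 replicates), and 0.951 ± 0.015 times in the gap. In coding exons the ratios were 1.29 ± 0.0034 and 1.28 ± 0.070 in the first and second block, and in introns 1.197 ± 0.0087 and 1.31 ± 0.0045. Outside protein-coding genes they were 1.27 ± 0.049 and 1.29 ± 0.042. These peaks overlap no region, but the blocks themselves were found from their values, so no test is given. In bins of 500 kb, the median signal value of all ranked peaks reached 20.5 in replicate 1 in the stretch and never passed 15.5 on the rest of IV. In replicate 2 the highest values were 27.8 and 21.2.

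**Figure D2:**
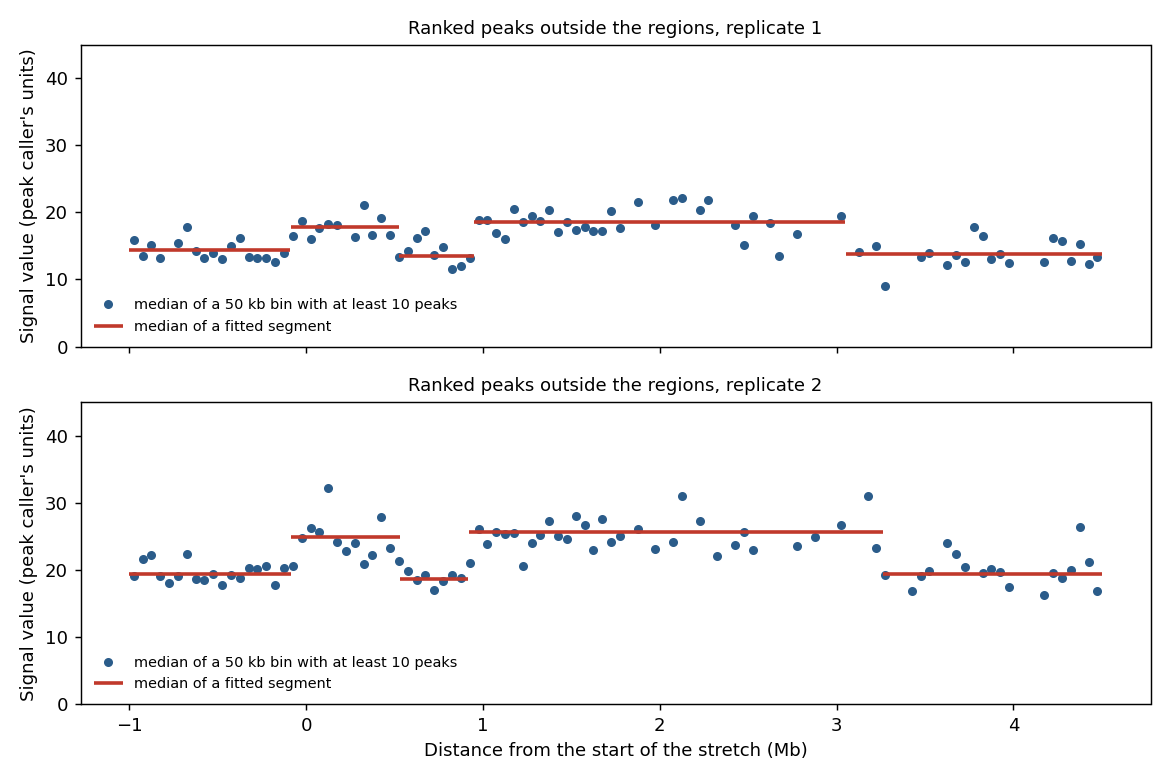
Signal value (peak caller's units) of ranked peaks that overlap no region, in replicate 1 (top) and replicate 2 (bottom), against distance in Mb from the start of the stretch; points are medians of 50 kb bins with at least 10 peaks and red lines are medians of the fitted segments. Both replicates show 2 raised blocks with a gap between them and lower values on either side.

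The blocks held almost all regions of the stretch. Of the 227 regions, 223 (98.2%) lay in a block, 65 in the first and 158 in the second, while the gap held 2 and the remaining 2 lay past the second block. The first block held 9 further regions before the lower limit. Density was 128 per Mb in the first block, 68.2 per Mb in the second and 12.9 per Mb on IV outside the blocks and the gap.

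A larger share of the ranked peaks of the stretch passed the authors' threshold. In the main list 205 of 2582 ranked peaks of the stretch were kept (7.94%), against 1.23% of 14102 on the rest of IV. In the conservative list the share was 6.43% against 1.08%. In the own lists it was 2.13% against 0.437% in replicate 1 and 3.29% against 0.559% in replicate 2. The rule used these calls, so the shares are a description. By signal value, the share of ranked peaks kept was about the same from 80 to 100 and higher in the blocks in the other classes. From 100 upwards, 33 of 41 peaks were kept in the blocks (80.5%) and 25 of 33 on IV outside them (75.8%). Of peaks with a value of 80 to 100, 90.9% were kept in the blocks and 90.5% on IV outside them. From 60 to 80 the shares were 40.2% and 31.3%, and from 40 to 60 they were 3.09% and 0.451%. Below 40 few peaks were kept in either place: 0.804% against 0.030% from 20 to 40 and 0.642% against 0.086% under 20. Of all ranked peaks, 11.1% in the blocks and 1.57% outside them had a value from 60 to 80, but the blocks were drawn from the signal values of ranked peaks, so a higher share there was fixed by that choice.

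**Figure D3:**
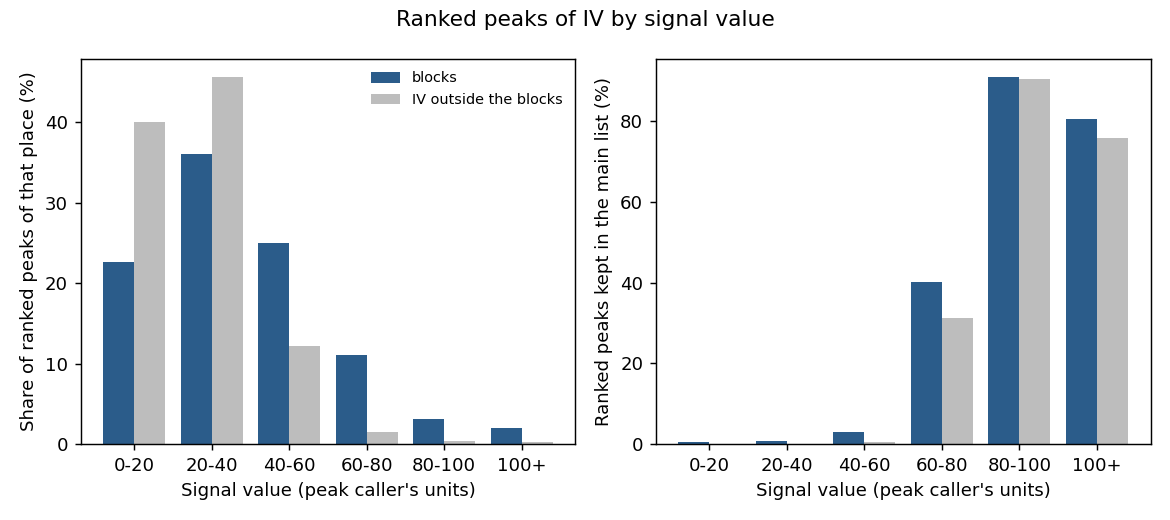
Ranked peaks of chromosome IV by signal value (peak caller's units): the share of each place's ranked peaks in each class of signal (left, percent) and the share kept in the main list (right, percent), in the blocks and on IV outside them. From 40 upwards the left bars are higher in the blocks, which were drawn from these values. The right bars are of similar height from 80 to 100 and higher in the blocks in the other classes. From 100 upwards they are lower in both places than from 80 to 100.

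Single regions of the stretch had signal values much like those on the rest of IV. Their signal values ran from 21.8 to 289.4 with a median of 77.6, against a median of 77.1 on the rest of IV. Both groups had passed the same threshold. The own list of replicate 1 held 31 of the 227 (13.7%) and that of replicate 2 held 58 (25.6%), 13 were in both (5.73%) and 151 (66.5%) in neither. On the rest of IV the shares were 14.2%, 25.8%, 7.89% and 67.9%. Of the 227, 124 came from both the main and the conservative list, 75 from the main list alone and 28 from the conservative list alone. Ranked peaks of both replicates overlapped 209 of the 227, with median signal values of 32.2 in replicate 1 and 48.2 in replicate 2. Across those 209 the replicates' values had a Spearman correlation of 0.074, and across the 178 such regions on the rest of IV of 0.108. All of these regions had been selected for high signal, which narrows the range of their values.

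**Figure D4:**
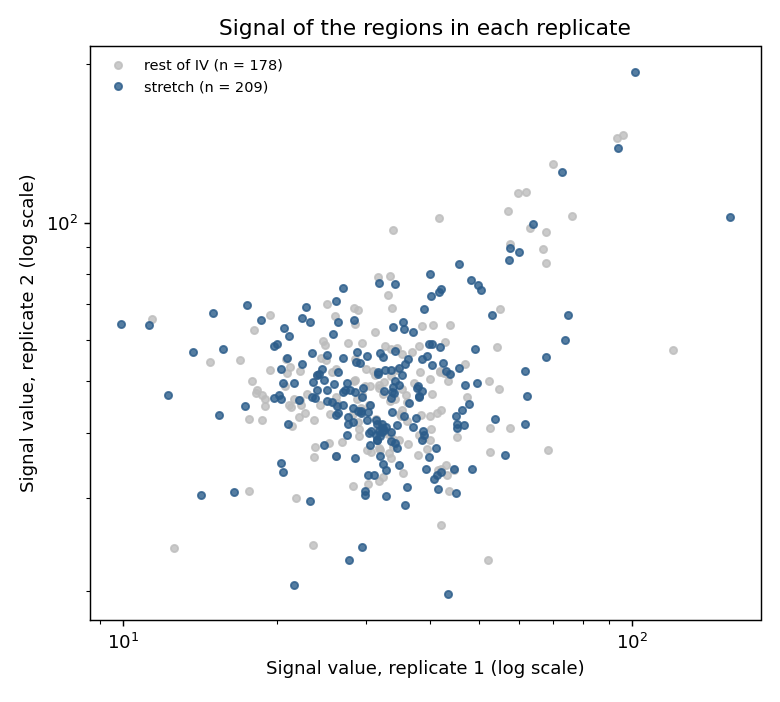
Signal value of each region in replicate 1 (horizontal) and replicate 2 (vertical), both on log scales, for the 209 regions of the stretch and the 178 on the rest of IV with a ranked peak in both replicates. Regions of the stretch lie among the others, and a small group of regions is high in both replicates.

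Most of the strongest regions were listed in both replicates. Of the 12 regions with the highest values, 9 were in the own lists of both replicates. The region in the rbm-34 intron, in a gene that encodes an RNA-binding motif protein, had a signal value of 289.4 in the series list, 101.1 in replicate 1 and 193.1 in replicate 2. It ranked 3rd of all 1533. The Y41E3.460 region (15059212 to 15059481) had 266.7, with 155.6 in replicate 1 and 102.5 in replicate 2. A region over the snoRNA gene Y67A10A.14 (14326970 to 14327239) had 229.3, with 93.7 and 138.3. These 3 were among the 20 strongest regions of the genome.

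The next 4 regions by signal value were of different kinds. A region 30 bp upstream of rpl-12 (13240546 to 13240815), whose product is part of the large subunit of the ribosome, had 200.9, with 72.9 in replicate 1 and 125.0 in replicate 2. One at the 5′ end of hrpu-1 (15039499 to 15039768), a gene for a heterogeneous nuclear ribonucleoprotein, had 161.1, with 64.0 and 99.4. The region over the tRNA gene WBGene00014305 (14224975 to 14225244) had 144.3, with 59.99 and 88.1. Because tRNA genes have copies that hardly differ, the copy behind these reads is uncertain. The tandem repeat region (15189526 to 15189795) had 138.7, with 57.6 and 89.7, and it overlapped no annotated gene.

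The other 5 of the 12 had values from 124.5 to 137.7. They lay in a coding exon of W02A2.12, 375 bp upstream of lin-66, which acts in the timing of larval development, in an intron of spe-43, a gene of sperm development, 127 bp upstream of tag-115, and 247 bp upstream of dpm-3, named for a subunit of dolichol-phosphate mannose synthase. The lin-66 region had 136.6, with 73.9 in replicate 1 and 59.9 in replicate 2, and the spe-43 region 133.2, with 74.9 and 66.7. At the low end stood a region over the tRNA gene WBGene00014571 (15187535 to 15187804) with 21.8, a region in an intron of rfc-3, a replication factor C subunit gene, with 23.2, and one in an intron of Y62E10A.13 with 36.7.

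Tandem repeats lay under 11 of the 227 regions (4.85%), counting a region that matched itself at 70% of bases or more at a shift of 8 to 120 bp. Of 270 bp tiles of the stretch, 1.27% did. On the rest of IV it was 5 of 190 regions (2.63%) and 0.976% of tiles. The repeats had been noticed among the strongest regions before they were counted, so no test is given. Their median signal value, 76.5, was close to the 77.6 of the other regions.

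Summits of the stretch lay less often at promoters and more often in coding exons than those on the rest of IV. The promoter of a protein-coding gene was taken to reach from 1000 bp before its 5′ end to 200 bp past it, and a summit could count both there and in another class. Of the 227 summits, 48 (21.1%, 95% Wilson interval 16.3 to 26.9%) lay at a promoter, against 68 of 190 (35.8%, 29.3 to 42.8%) on the rest of IV (Fisher's exact test, two-sided, adjusted p = 0.0060 over 6 classes). Coding exons held 88 (38.8%, 32.7 to 45.2%) against 50 (26.3%, 20.6 to 33.0%; exact adjusted p = 0.027). The share of bases is alike in both places, with promoters at 18.9% and 20.3% and coding exons at 20.8% and 23.1%. Among all ranked peaks of replicate 1, coding exons held 196 of 399 in the first block and 380 of 1078 in the second. On IV outside the blocks and the gap they held 2196 of 6636. In replicate 2 the counts were 238 of 484, 397 of 1218 and 3004 of 8937. Whether the regions differ from the ranked peaks in this share was not tested. Regions were counted as independent, although many are neighbours. With 1 region per run, the adjusted p rose to 0.29 for promoters and 0.48 for coding exons (exact test). The coding exon call was also lost in the main list alone (exact adjusted p = 0.072), the promoter call among regions above the median signal (0.060), and both with a promoter of 500 bp upstream (0.053 for coding exons and 0.056 for promoters).

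Other positions did not differ past the threshold. Introns held 50 summits (22.0%) against 41 (21.6%; exact adjusted p = 1). Summits outside protein-coding genes numbered 75 (33.0%) against 82 (43.2%; exact adjusted p = 0.085). The untranslated regions held 6 (5′) and 8 (3′) of the 227, against 6 and 11 of 190. In the replicates' own lists, coding exons held 30.5% ± 6.84 of summits in the stretch and 12.2% ± 2.58 on the rest of IV (SD, n = 2). Promoters held 28.8% ± 3.73 and 42.1% ± 8.68. The order was the same in both replicates, with 25.7% against 10.3% for coding exons in replicate 1 and 35.4% against 14.0% in replicate 2. Neither own list passed the test, with exact adjusted p of 0.064 to 0.55 for these 2 classes.

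**Figure D5:**
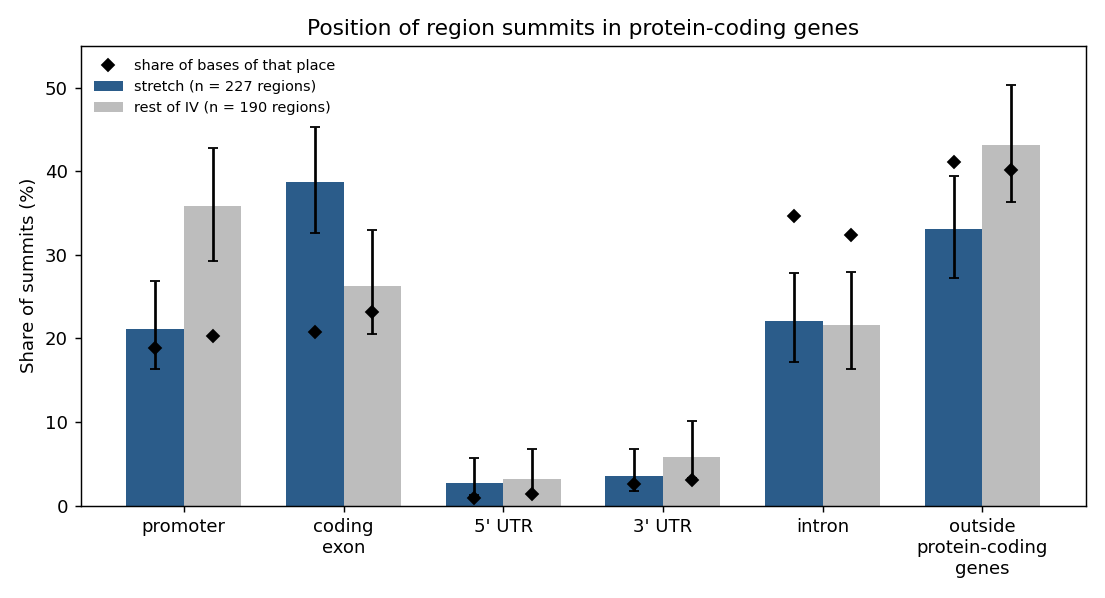
Share of summits (percent) in each position class, for the 227 regions of the stretch and the 190 on the rest of IV, with 95% Wilson intervals as bars; diamonds give the share of bases of that place. Coding exons stand at 38.8% in the stretch and 26.3% elsewhere, promoters at 21.1% and 35.8%.

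Several genes held more than 1 region. A summit lay inside 110 of the 604 protein-coding genes with their 5′ end in the stretch, counted by symbol, of which 28 held at least 2 and 9 at least 3. Longer genes can hold more summits. The genes with a summit had a median length of 3315.5 bp, against 2168 bp for all protein-coding genes of the stretch. The counts were not adjusted for length. F19B6.1 held 5 regions with values from 70.8 to 104.0, of which 3 were in coding exons. mbk-2, which encodes a kinase needed for the change from egg to embryo, held 5 from 38.2 to 122.9, and its strongest, in an intron, was in both own lists, with 40.1 in replicate 1 and 79.8 in replicate 2. hrpu-1 held 4 from 80.04 to 161.1, ccr-4, a deadenylase gene, 4 from 51.9 to 107.1, lin-66 4 from 67.3 to 87.4 and lst-4, a sorting nexin gene, 4 from 67.3 to 81.8. Of the 88 summits in coding exons, 26.1% lay in exons of 500 bp or more, which hold 21.8% of the coding bases of the stretch. On the rest of IV it was 15 of 50 summits, against 22.0% of coding bases.

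The median distance between neighbouring regions was 3880 bp in the stretch and 35358 bp on the rest of IV. Joining regions within 5 kb gave 102 runs, of which 46 were a single region and 30 held 3 or more. The largest runs held 7 regions each, at 12326757 to 12339436 over F19B6.1 and wht-5, a gene of the ABC transporter family, and at 13881797 to 13891866 over lin-66 and thoc-7, named for the THO complex. The longest distance without a region was 252467 bp, from 14619936 to 14872402.

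Gene families of the stretch, counted by symbol, were hit in unequal parts. Over all protein-coding genes, 132 of 604 (21.9%) had a region in the body or at the promoter. Of 6 ribosomal protein genes with the symbols rpl or rps, 3 did. They were rpl-12, rpl-29 with 80.2 (34.7 in replicate 1 and 49.2 in replicate 2) and rpl-18 with 71.2 (29.3 and 43.9). Genes under other symbols, such as rla-2 with a region of 81.2, were not in this count. Of 6 collagen genes, which encode proteins of the cuticle, 4 did, all with the summit in a coding exon. The strongest was at col-131 with 98.9 (49.5 and 49.6). Collagen genes resemble each other, so the assignment of their reads is uncertain. Of 36 chemoreceptor genes 4 had a region (sra-30, srsx-25, srt-47 and srz-29), of 4 F-box genes 1 (fbxa-83), of 3 detoxification genes 2 (ugt-22 and ugt-65) and of 4 unc genes 2 (unc-22, with 117.1 and 66.2 in introns, and unc-26, which encodes synaptojanin). None of 6 lectin genes and not the 1 nuclear receptor gene had one. The lists are small and their counts have no test.

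A smaller share of the regions of the stretch lay over snoRNA genes than of those on the rest of IV. The other small RNA classes did not pass the test. A tRNA, snoRNA or small nuclear RNA (snRNA) gene was overlapped by 11 of the 227 regions (4.85%) and by 29 of 190 on the rest of IV (15.3%). By class, 2 regions (0.881%) lay over a snoRNA gene, compared with 12 (6.32%; Fisher's exact test, two-sided, adjusted p = 0.018 over 8 classes). The strongest region, in the rbm-34 intron, is not among the 2. It is 98 bp wide, against a median of 270 bp, and ends 26 bp before the snoRNA gene F11A10.9. With genes within 100 bp of a summit counted instead, the shares were again 0.881% and 6.32% (exact adjusted p = 0.018). For tRNA genes the numbers were 8 (3.52%) against 15 (7.89%; exact adjusted p = 0.11). The stretch holds 17 tRNA genes, of which 8 were hit (47.1%), and 7 snoRNA genes, of which 2 were (28.6%). The rest of IV had 16 of 54 (29.6%) and 12 of 52 (23.1%). Counted per gene, neither class was hit less often in the stretch, where regions are denser. A region of 270 bp would overlap a snoRNA gene at 0.082% of places in the stretch and at 0.148% on the rest of IV. The snoRNA call was lost in each replicate's own list and with 1 region per run (exact adjusted p = 0.21).

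The tRNA regions had signal values from 21.8 to 144.3. Besides WBGene00014305, the highest was at WBGene00014313 (12417839 to 12418310) with 122.0, 67.7 in replicate 1 and 55.6 in replicate 2. Next stood WBGene00014625, in an intron of unc-22, with 117.1 (42.1 and 74.9). WBGene00014315 had 90.2, WBGene00014592 had 84.0 and WBGene00006330 had 81.8. The second snoRNA region, over Y41E3.464 in an intron of fcd-2, had 63.7 (28.5 and 35.8), far below the 229.3 of Y67A10A.14. The 1 snRNA gene hit was smy-10, with 77.7 (30.4 and 39.9), in the same region as the piRNA gene 21ur-3398. The 1 microRNA gene was cel-mir-2217b-3, with 63.7 (24.7 and 37.9). Other non-coding RNA genes lay under 15 regions (6.61%), compared with 25 (13.2%) on the rest of IV (exact adjusted p = 0.079), 8 regions overlapped a pseudogene against 4 (exact adjusted p = 0.79), and none overlapped a ribosomal RNA gene.

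The piRNA genes were rarely under a region. The stretch holds 6248 of the 15363 annotated piRNA genes (40.7%), and 15 of the 6248 were overlapped. With a piRNA gene counted only within 100 bp of a summit, the shares of regions were 2.20% and, on the rest of IV, 0.526% (exact adjusted p = 0.45). Of the regions, 12 (5.29%) overlapped a piRNA gene, against 2 of 190 on the rest of IV (1.05%; exact adjusted p = 0.079). Of all places where a region of the median width, 270 bp, could start, 28.3% in the stretch and 10.7% on the rest of IV would overlap one. In both places the share was thus below that of the placements, and the higher share in the stretch goes with a higher density of piRNA genes.

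The piRNA genes fill only the later part of the stretch. From 12 Mb to 13600000 there were 76 piRNA genes and 146 regions, or 91.3 per Mb, and none overlapped a piRNA gene. From 13600001 to 15.5 Mb there were 6172 piRNA genes and 81 regions, or 42.6 per Mb, of which 12 (14.8%) overlapped one, against 51.2% of placements. Coding exons held 42.5% of summits in the first part, where they are 27.4% of bases, and 32.1% in the second, where they are 15.2%. On the rest of IV, regions were also counted in bins of 100 kb with at least 150 piRNA genes. The 8 such bins before the stretch had 5.0 per Mb, and the 16 beyond it, up to 17100000, had 10.6 per Mb.

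The regions over piRNA genes were of ordinary signal. Those over 21ur-402 and 21ur-15220, in an intron of sra-30, had 96.8 (26.2 in replicate 1 and 70.9 in replicate 2), and that over 21ur-9154, in a coding exon of xdh-1, named for xanthine dehydrogenase, had 95.8 (45.7 and 53.1). The region over 21ur-3387 in lin-66 had 87.2 (18.6 and 65.3), and that over 21ur-6781 in srt-47 had 82.2 (28.9 and 44.0). The region over 21ur-3398 and smy-10, whose sequence is given above, had 77.7. Only at WBGene00014305, whose region also reaches 21ur-3160, did the value pass 100. Of the 12 regions, 7 had their summit in a protein-coding gene, and 3 also overlapped a gene for another kind of RNA.

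Both strands of each window, reaching 50 bp to either side of a summit, were searched for 4 motifs. The piRNA promoter core CTGTTTCA was in 0 of the 227 windows, which allows a share of up to 1.32%, and in 0 of 190 on the rest of IV. It was in 5.22% of all tiles of that width of the stretch and in 2.56% of those on the rest of IV. At the tile share 11.9 of the 227 windows would hold it. That number takes tiles of the whole stretch, while 81 of the 227 regions lay in the later part, which holds most of the piRNA genes. A number for each part was not computed. TTRCRYAA was in 1 window (0.441%) against 2 (1.05%; exact adjusted p = 0.85), with 2.50% of tiles of the stretch. The E-box CACGTG was in 8 (3.52%) against 9 (4.74%; exact adjusted p = 0.85), with 1.56% of tiles, and TTTTTTTT in 9 (3.96%) against 10 (5.26%; exact adjusted p = 0.85), with 15.2% of tiles. None of the 4 differed past the threshold between the stretch and the rest of IV.

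Summit windows were rich in G and C, with a median of 46.5% in the stretch against 32.7% in its tiles, and 48.0% against 33.7% on the rest of IV. How far base composition sets the motif shares was not tested. The letters marked in the printed windows were counted after those windows had been read. GTTCGA was in 18 windows (7.93%) against 8.42% on the rest of IV and 3.503% of tiles of the stretch, and 5 of the 18 were at tRNA genes. TTCNNGAA was in 16 (7.05%) against 6.32% on the rest of IV and 7.51% of tiles. GGCGGGAA was in 3 (1.32%) against 0 of 190 and 0.877% of tiles.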

How the data were processed

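ChIP-seq peak lists of 2 biological replicates were analysed, with no control immunoprecipitation. The build was ce11, per the file headers. Aligner, peak caller and settings: not given in the sources used here. Deposited columns used were the authors' signal value per peak, of unstated normalization, the authors' score and the authors' −log10 values of reproducibility. Signal values are each peak's own and were compared only within a list, apart from a rank correlation between the replicates; a merged region has the value of its strongest peak in either list. Depth is unknown, so Wilson intervals cover the counting of regions only.

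Genes came from Ensembl release 115 (WBcel235), and peak ends fell within its chromosome lengths. Fisher's exact tests compared regions of the stretch with those on the rest of IV, adjusted by the Benjamini-Hochberg method within each family at 0.05, and treat regions as independent. Segments of log2 signal needed 20 peaks, with a penalty factor of 3 per change. The segmentation and the Fisher test were tested on simulated data. Python 3.11.15, numpy 2.4.6, pandas 2.3.3, scipy 1.17.1 and matplotlib 3.10.9 were used.

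The regions, lists and tests were chosen with earlier results of these data known. Named regions were the 12 of highest signal, those at the limits, up to 6 over each small RNA class (10 for piRNAs), the 6 genes with most regions, up to 12 in both own lists and the 3 of lowest signal. The regions taken from the gene lists, and the repeats and letters counted under the printed sequences, were chosen after values were seen. Alternatives used single lists, each replicate's own list, regions above the median signal, 1 region per run and unmerged peaks. Others used other promoter windows, motif windows of 201 bp, small RNA genes within 100 bp of a summit and other chromosomes. Blocks in place of the stretch and other penalties were added after the data were seen.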

Additional observations from a re-analysis of the deposited data

How the results depend on the processing

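No difference that passed the test in the main setting changed sign. Across all settings, 122 values kept their direction and their side of the threshold or moved little. A further 23, of differences that did not pass in the main setting, changed sign. Among these, tRNA genes and other non-coding RNAs passed in some alternatives but had the other sign in the own list of replicate 1 (2.27 and 1.08). Shares below are differences in percentage points, stretch minus rest of IV. No paired analysis was possible because the series has 1 group, whose replicates are not set against another. Leaving out a replicate means using the other's own list: promoters gave -16.8 to -9.85, coding exons 15.4 to 21.4, introns -7.54 to 2.17, 5′ untranslated regions 1.54 to 2.86, 3′ untranslated regions -0.923 to 1.67, snoRNA genes -10.5 to -4.63, tRNA genes -9.38 to 2.27, other non-coding RNAs -7.23 to 1.08, pseudogenes -6.46 to -3.45, and the density ratio 4.83 to 5.20; no test of these shares passed there, on 35 and 65 regions.

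The promoter difference no longer passed above the median signal (-14.0), with 1 region per run (-12.4) or with a promoter of 500 bp upstream (-8.12). The coding exon difference no longer passed with the main list alone (11.0), 1 region per run (6.81) or the 500 bp promoter (12.5), where only the adjustment changed. The share outside protein-coding genes passed in the conservative list (-17.9), above the median signal (-20.3), against other chromosomes (-11.8) and with the blocks in place of the stretch (-12.9). The snoRNA difference did not pass with 1 region per run (-5.57). Other non-coding RNAs passed in the conservative list (-10.1), above the median signal (-15.0), against other chromosomes (-12.2) and with the blocks (-7.63). tRNA genes passed against other chromosomes (-10.6) and with the blocks (-6.16), and piRNA genes against other chromosomes (5.20). The density ratio was 5.06 above the median signal and 2.79 with 1 region per run. When 2 times the mean sufficed, the first dense bin began at 11500001. That was the first bin of the flank searched, so it is a limit of the search and not an edge. The bin before it, from 11400001, held 4 regions where 2.71 were needed. The other sign changes were for introns (-4.49 above the median signal, -2.11 with 1 region per run, -1.90 against other chromosomes, -1.28 with the blocks), 5′ untranslated regions (0.117 in the main list, 0.259 in the conservative list, 2.21 above the median signal, 2.55 with 1 region per run, 0.582 against other chromosomes), 3′ untranslated regions (0.165 above the median signal), pseudogenes (-0.856 above the median signal), microRNA genes (0.295 with 1 region per run, 0.172 against other chromosomes), CACGTG (0.567) and TTTTTTTT (0.470), both against other chromosomes. The causes of these changes were not tested.

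With a penalty of 5, IV had 3 segments in replicate 1 and in the list behind the conservative list and 5 in the others; with 10 it had 3 in each, and no other chromosome had more than 1 at either. At 10 the raised segment was 11913087 to 15050213 in replicate 1 but the second block alone in the other lists, so the first block and the gap depend on the penalty.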
